A study of Mus musculus with 15 samples.

Results

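FLAG ChIP-seq of Sp7 (Osterix) was compared with FLAG ChIP-seq of a mutant form, labelled Sp7mut, in MC3T3-E1 cells, a mouse pre-osteoblast line from calvaria. The 4 libraries compared were 2 of Sp7 and 2 of Sp7mut, and their lists held 50036 of the 165108 peaks in the 12 lists of the series. All cell line groups shared the same conditions: passages 5 to 10, 1 week in osteogenic medium with 10% serum, 10 ng/ml BMP2, 50 ug/ml ascorbic acid phosphate and 10 mM beta-glycerophosphate, and pulldown with the FLAG M2 antibody. Lists of Dlx5 and of Sp1 in the same line (2 libraries each) and of tagged Sp7 in primary osteoblasts (Sp7-BioFL/BioFL calvaria of C57BL/6 mice at postnatal day 1, 2 libraries) served as partners. A GFP library of the line and a wild-type library of the primary cells (1 each) gave the antibody background. The sources used here do not give the residues changed in Sp7mut, how the proteins were expressed, or whether the cells were clonal. Peaks of Sp7 and Dlx5 were called against one input library and those of Sp7mut and Sp1 against another, so protein and input cannot be told apart in any difference between Sp7 and Sp7mut.

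A region of a group was a stretch of overlapping or adjoining peaks that held a peak of both replicates and overlapped no GFP peak. By this rule there were 5019 Sp7 regions and 8203 Sp7mut regions, 9715 in all when regions met by both proteins were counted once. A region was kept when it was a region of both proteins, lost when Sp7 had it and neither Sp7mut list held a peak there, and gained when Sp7mut had it and neither Sp7 list held a peak there. These words describe the lists only. The files give positions without read counts or scores, so the depth is unknown and a missing peak is not a measured absence of binding.

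Sp7 belongs to the Sp family of zinc finger transcription factors, most of which, Sp1 among them, bind GC-rich sites at the promoters of many genes. Sp7 is required for osteoblasts to form. Dlx5 is a homeodomain factor of the developing skeleton, and homeodomains bind AT-rich sites. The zinc fingers of Sp7 are related to those of Sp1 without being identical, and comparing a mutant Sp7 with both partners asks which sites the protein takes when its own sequence is altered.

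The lists of the same protein differed in length, which bears on every count below. Sp7 had 18624 peaks in replicate 1 and 6063 in replicate 2, and Sp7mut had 10519 and 14830. Since a region needed both replicates, the Sp7 regions were limited by the short second list. The Sp1 lists held 10549 and 28210 peaks and gave 8942 regions. The Dlx5 lists held 30234 and 39749 peaks and gave 23688 regions. Regions said below to be with or without a partner are judged by its regions, so a peak in only 1 partner list may remain. Few peaks met the GFP control: 160 and 87 in the Sp7 lists, and 133 and 164 in the Sp7mut lists. Of the first 100 rows, 15 did so in Sp7mut replicate 2, against 0 to 3 in Sp7mut replicate 1 and the Sp7 lists. In the partner lists of the line it was 18 and 23 for Sp1, and 7 and 0 for Dlx5. The smallest p that exact permutation (two-sided) allows for 2 lists of each protein is 0.333, and regions are not replicates. No test was therefore made, and differences are set beside the spread between lists. That spread may be technical, since nothing says that the replicates were separate cultures.

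In the whole lists, Sp7mut regions met 3492 of the 5019 Sp7 regions (69.6%, with a 95% interval by Clopper-Pearson of 68.3 to 70.8, for counting error only). A further 908 (18.1%) met an Sp7mut peak without an Sp7mut region, and 619 (12.3%) met no peak of either Sp7mut list. Of the 908, 675 had a peak in Sp7mut replicate 2 only and 187 in replicate 1 only. The kept share depended on which Sp7 list was used: it was 35.8% when the long replicate 1 alone defined the Sp7 regions and 64.2% when replicate 2 alone did. It was 22.6% when only the wider 50% of peaks were used, and 39.6% to 77.4% in the 4 pairs of single lists. The number of lost regions rested on these lists too, at 7935 without Sp7 replicate 2, 1029 without Sp7 replicate 1, 1316 without Sp7mut replicate 2 and 822 without Sp7mut replicate 1.

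From the side of the mutant, 3507 of the 8203 Sp7mut regions were Sp7 regions (42.8%, interval 41.7 to 43.8) and 1550 (18.9%, interval 18.1 to 19.8) met no Sp7 peak. The largest part of the remainder was not free of Sp7. There were 3146 Sp7mut regions that met an Sp7 peak without an Sp7 region, and in 2850 of these (90.6%) the peak was in Sp7 replicate 1 only. When replicate 1 alone defined the Sp7 regions, 78.0% of Sp7mut regions were Sp7 regions. Gained regions numbered 4722 without Sp7mut replicate 1, 4428 without Sp7 replicate 1, 2692 without Sp7mut replicate 2 and 1802 without Sp7 replicate 2.

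Row order is the only ranking the files carry. Its rule is not stated. Each region was placed by its row as a percentile, averaged over the replicates. Kept regions were concentrated at the start. Among the first 20% of Sp7 regions, 94.8% were kept and 1.49% (15 of 1004) were lost. Among the last 20%, 42.8% were kept and 28.1% (282 of 1003) were lost. The Sp7mut regions ran the same way, from 87.3% kept and 2.38% gained in the first 20% to 11.7% kept and 41.0% gained in the last.

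**Figure D1:**
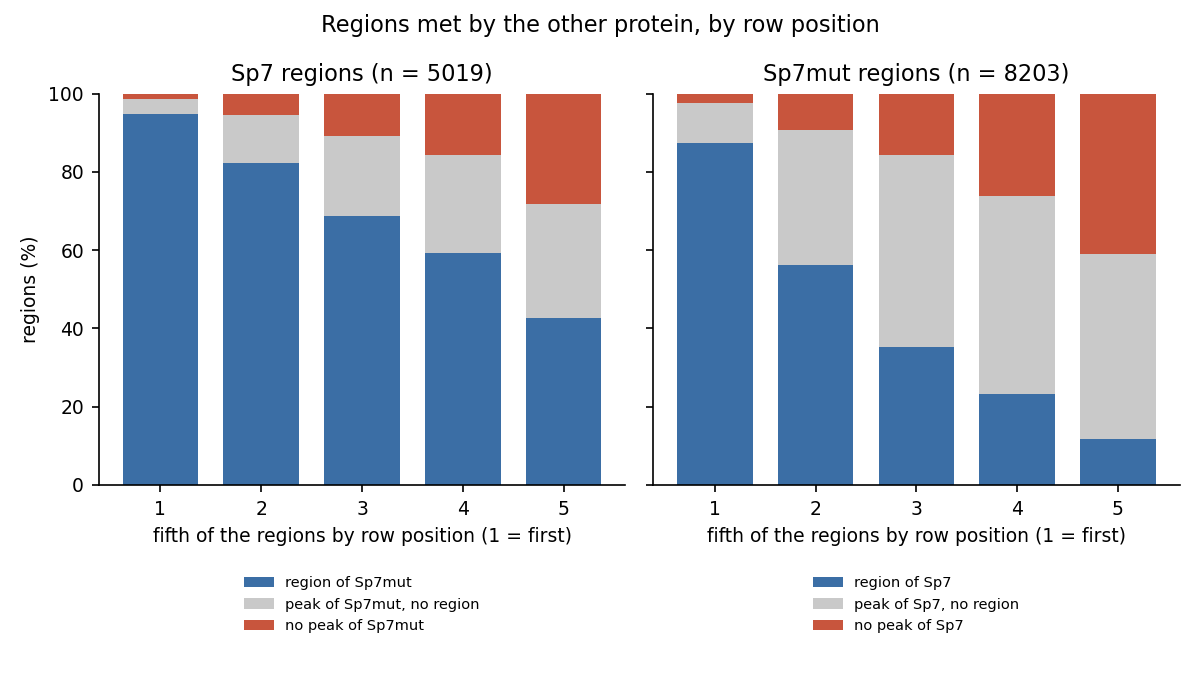
Percentage of Sp7 regions (left, n = 5019) and of Sp7mut regions (right, n = 8203) in each successive 20% by row position (x axis, 1 = first) that were regions of the other protein (blue), met only a peak of it (grey) or met no peak of it (red). The blue part shrinks from 94.8% to 42.8% on the left and from 87.3% to 11.7% on the right.

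To remove the effect of list length, single lists were compared over the same number of rows outside GFP peaks. Over the first 1000 rows, the 4 pairs of an Sp7 and an Sp7mut list shared 62.2% to 63.8% of their peaks, the replicates of Sp7 71.8% and 71.9%, and the replicates of Sp7mut 75.5%. Every pair across the proteins lay below both replicate pairs, also over the first 100 rows (50% to 59% against 68% and 73%) and the first 2500 (58.7% to 60.9% against 67.2% and 75.1%). Over 5976 rows, all that the shortest list held, the across-protein shares were 55.0% to 57.2%, the Sp7 replicates shared 60.7% and 61.2%, and the Sp7mut replicates 71.6% and 71.9%. At this length the gap to the Sp7 replicates was the narrowest of the lengths given here.

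**Figure D2:**
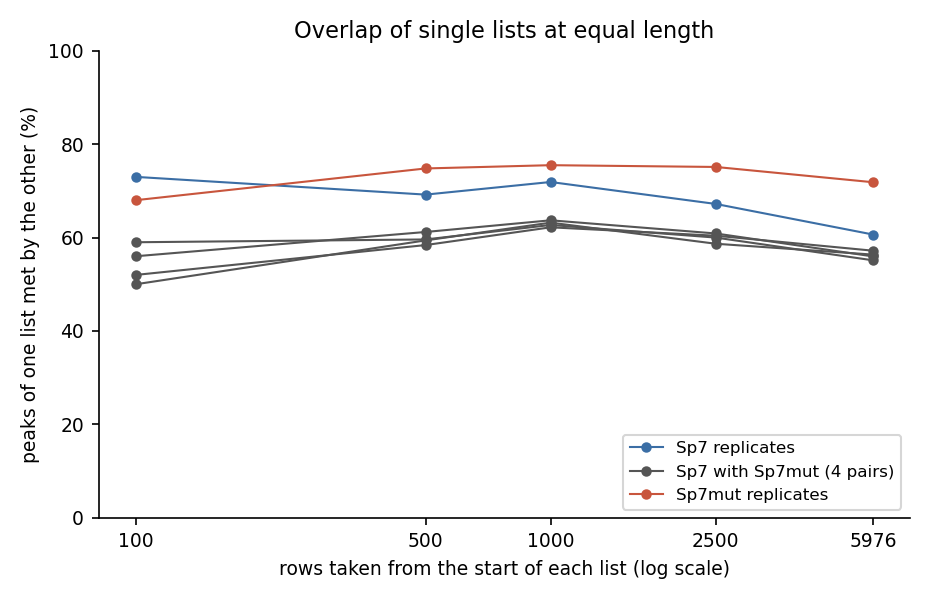
Percentage of peaks of one list that overlapped a peak of another (y axis) when both were shortened to their first 100 to 5976 rows outside GFP peaks (x axis, log scale), for the replicates of Sp7, the replicates of Sp7mut and the 4 pairs across the proteins. The 4 grey lines lie below both replicate lines at every length.

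Most of the first rows were nevertheless present in the lists of the other protein. Of the first 1000 rows of each list, 91.1% to 94.7% were found somewhere in the first 5976 rows of a list of the other protein, against 96.0% to 98.8% in those of the own replicate. Of the first 100 rows, 96% to 100% were found there. With all 4 lists shortened to 6063 rows before regions were made, 3611 Sp7 and 4250 Sp7mut regions remained, of which 64.7% and 55.1% were kept. In these shortened lists 688 Sp7 regions met no Sp7mut peak, and 430 of them did meet one further down the whole lists. Likewise 536 of 877 gained regions met an Sp7 peak further down. Most regions lost or gained at equal length thus had a peak of the other protein in the whole lists.

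The 10 leading kept regions stood near the top of all 4 lists. The first was chr19:23458791-23458957 (mm9, 1-based), at rows 6 and 2 of the Sp7 lists and rows 1 and 3 of the Sp7mut lists. Next came chr15:97859520-97859677, at rows 1 and 1 of Sp7 and 4 and 8 of Sp7mut, and chr19:24794066-24794246, at rows 2 and 3 of Sp7 and 3 and 6 of Sp7mut. Dlx5 regions met all 10, primary osteoblast Sp7 regions met 9, and Sp1 regions met 3. Those that were not Sp1 regions each held a peak in 1 of the 2 Sp1 lists. The one that was not a primary Sp7 region, chr4:48449929-48450063, held a peak in 1 of the 2 primary lists. None of the 10 stood below place 18 among Sp7 regions or place 16 among Sp7mut regions. Of all kept regions in the first 20% of the Sp7 regions, 97.5% met Dlx5, 47.5% primary Sp7 and 27.0% Sp1 regions. Genes at these positions are not named, because no mm9 annotation was used here.

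The 5 leading lost regions stood high in both Sp7 lists. The highest, chr17:39982664-39983105, was at rows 23 and 70 of the Sp7 lists, and chr17:39984498-39984579, on the same chromosome and close by, at rows 136 and 384. Both overlapped a peak of the wild-type FLAG control of primary cells, although no GFP peak, and the first also held peaks in both primary Sp7 lists. The others were chr11:3038405-3039030 (rows 241 and 71), chrX:166417065-166417305 (rows 224 and 521) and chr5:152173803-152173896 (rows 465 and 458), with no wild-type control peak. Of the 5, 4 were Dlx5 regions, 1 was an Sp1 region and none was a primary Sp7 region. Among all 5019 Sp7 regions these shares were 84.4%, 30.3% and 16.6%, and 5 regions are too few to depart from them. The exception for Dlx5, chr17:39982664-39983105, held a peak in 1 Dlx5 list, and chr11:3038405-3039030 held one in 1 Sp1 list. Wild-type control peaks met 3 of the 619 lost, 7 of the 3492 kept and 2 of the 1550 gained regions, and leaving them out, a step chosen after seeing the data, gave 616 lost and 1548 gained.

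The leading gained regions stood lower in their lists. The first, chr10:68135157-68135308, was at rows 358 and 546 of the Sp7mut lists. It was followed by chr6:134516929-134517235 (rows 260 and 1433), chr10:60062644-60062906 (rows 604 and 1301), chr8:23564858-23565021 (rows 688 and 1256) and chr3:101548159-101548375 (rows 922 and 948). Of these 5, 4 were Dlx5 regions and also primary osteoblast Sp7 regions, so tagged Sp7 gave peaks there in the primary cells. The exception was the chr6 region, an Sp1 region with no Dlx5 peak. Other leading gained regions with Sp1 and without Dlx5 were chr1:173433539-173433676 (rows 1310 and 1200) and chr17:56970333-56970536 (rows 1463 and 1175). Of all 8203 Sp7mut regions, 68.3% were Dlx5 regions and 12.5% primary Sp7 regions. In the first of 5 parts by row position, these shares were 76.9% and 35.9% in gained regions. Kept regions of that part had 92.3% and 37.9%. Whether the 5 leading gained regions departed from these shares was not tested.

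Lost regions rarely coincided with Sp1. Among all 5019 Sp7 regions, 30.3% were Sp1 regions. The share was 37.5% in kept regions (1311 of 3492), 18.6% in regions with an Sp7mut peak only (169 of 908) and 6.95% in lost regions (43 of 619, interval 5.07 to 9.24). The interval is for counting error only. At matched row position, with shares compared within each 20% of the Sp7 regions and averaged with the weights of the lost regions, kept regions had 38.8% and lost regions 6.95%, a difference of 31.9 percentage points. Kept regions were higher in 5 of 5 parts. The first part held only 15 lost regions and gave 27.0% against 3 of 15, and the others gave 36.8% to 45.5% against 1.83% to 8.18%. The 4 pairs of single lists gave differences of 19.9 to 28.0 points, all in the same direction. In these pairs the Sp1 share of lost regions at matched position was 10.8% to 12.9%. The difference fell to 13.9 points when an overlap had to cover at least 50% of both, and to 13.7 points with the wider 50% of peaks.

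For Dlx5 the difference between kept and lost regions was small in the regions as defined, and its size and sign changed with the setting. Among all Sp7 regions 84.4% were Dlx5 regions, with 86.8% of kept and 75.1% of lost regions. At matched row position the shares were 78.4% and 75.1%, a difference of 3.26 points, and kept regions were higher in 3 of 5 parts. The pairs of single lists gave 4.31 to 11.0 points. The sign turned with lists of equal length, to -1.39 points, and with the wider 50% of peaks, to -1.10 points. It grew to 11.2 points without Sp7 replicate 1 and to 15.8 points when an overlap had to cover at least 50% of both, where Sp1 gave 13.9 points.

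The partners combined as follows. Of Sp7 regions with both Dlx5 and Sp1, 88.5% (1018 of 1150) were kept and 1.74% were lost. Of those with Sp1 alone 78.6% (293 of 373) were kept, of those with Dlx5 alone 65.2% (2012 of 3087), and of those with neither 41.3% (169 of 409). At matched position all 4 groups followed this order only in the last 20% of the Sp7 regions, at 68.8%, 57.9%, 39.1% and 26.0% kept. In the second and the third part regions with Sp1 alone were kept most often (95.6% and 89.9%, against 94.0% and 86.3% with both partners). In the first part Dlx5 alone exceeded Sp1 alone (94.2% against 88.9% of 9 regions), and in the fourth part regions with neither exceeded those with Dlx5 alone (51.1% against 49.7%). Among Dlx5 regions, those with Sp1 were kept more often than those without in each of the 5 parts, from 97.6% against 94.2% in the first to 68.8% against 39.1% in the last. Of the lost regions, 71.9% were Dlx5 sites without Sp1 (445 of 619) and 21.2% met neither partner (131). In kept regions these shares were 57.6% and 4.84%. Of all 5019 Sp7 regions, 3087 were Dlx5 sites without Sp1 and 409 met neither. Sp1 and Sp7mut share an input library, and its part in their overlap cannot be told apart from that of the protein.

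**Figure D3:**
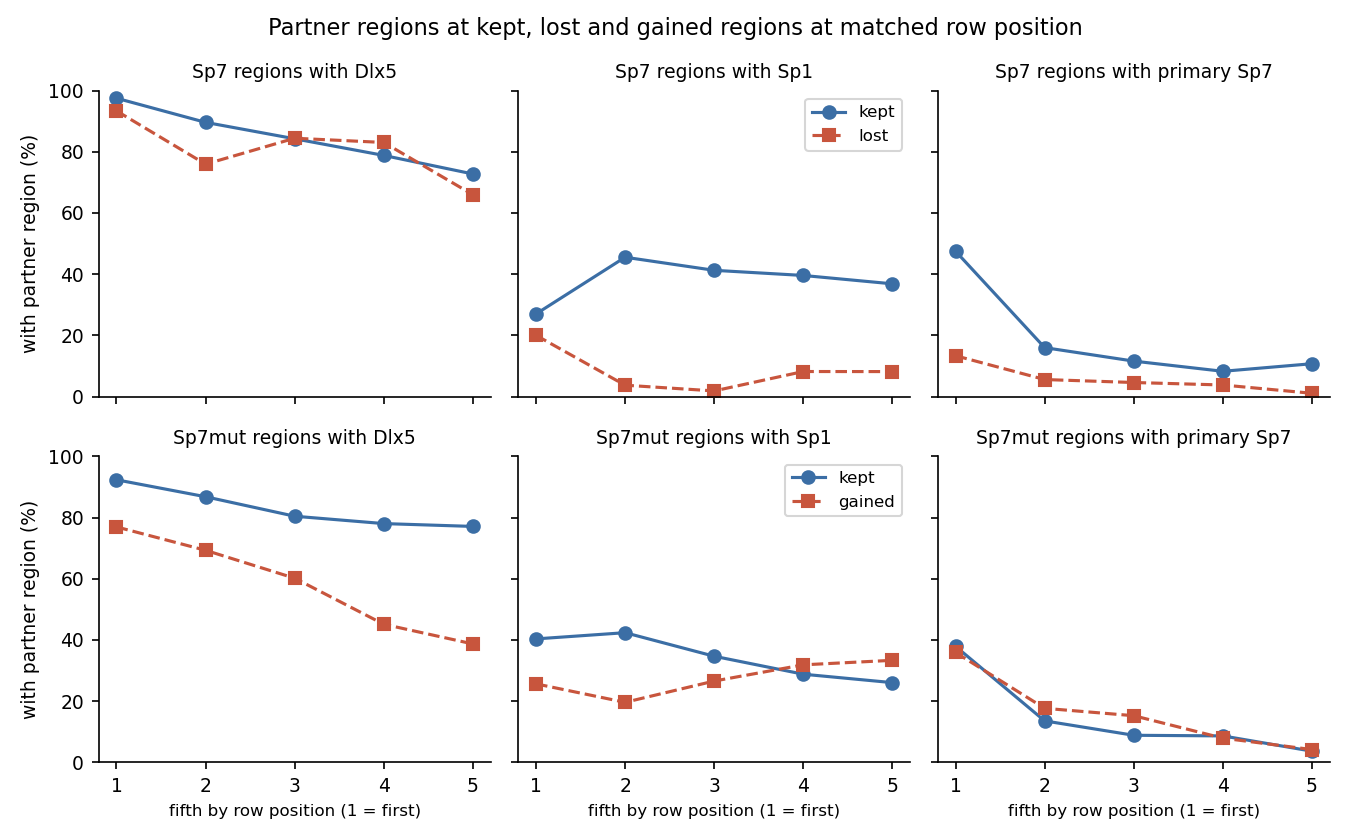
Percentage of regions that were Dlx5, Sp1 or primary osteoblast Sp7 regions (y axis) in each successive 20% by row position (x axis, 1 = first), for kept (blue) against lost Sp7 regions (top) and kept against gained Sp7mut regions (bottom, red dashed). Kept and lost regions part for Sp1 (38.8% and 6.95% on average), and kept and gained regions for Dlx5 (79.2% and 48.0%).

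Gained regions coincided less with Dlx5 than kept regions did, while for Sp1 the direction changed with the list. Among all 8203 Sp7mut regions, 68.3% were Dlx5 regions. The share was 86.5% in kept regions (3034 of 3507), 58.1% in those with an Sp7 peak only (1828 of 3146) and 48.0% in gained regions (744 of 1550, interval 45.5 to 50.5). The interval is for counting error only. At matched position, kept regions had 79.2% and gained regions 48.0%, and kept regions were higher in 5 of 5 parts. The pairs of single lists gave a gap of 16.3 to 26.9 points, larger with the short Sp7 replicate 2 (26.9 and 25.8) than with replicate 1 (16.3 and 19.0). In these pairs the Dlx5 share of gained regions at matched position was 41.9% to 58.5%. With Sp7 replicate 2 left out of the regions, gained minus kept was -11.6 points. Sp7 and Dlx5 share an input library, and its part in this difference cannot be told apart from that of the protein.

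For Sp1, the shares at matched position were 30.2% in kept and 30.3% in gained regions, against 40.1% of all Sp7mut regions. The direction depended on the Sp7 list used. Against Sp7 replicate 1, kept regions had Sp1 more often than gained ones, by 8.97 and 7.24 points with the 2 Sp7mut lists. Against replicate 2, they had it less often, with kept minus gained at -10.8 and -6.80 points. The direction also turned along the list, with 42.4% of kept and 19.6% of gained regions in the second part and 26.0% and 33.3% in the last. Sp7mut regions that met an Sp7 peak without an Sp7 region had the highest Sp1 share, 47.3% (1488 of 3146), and at matched position kept minus such regions was -14.6 points, with kept regions lower in 5 of 5 parts. As given above, 2850 of these 3146 met a peak of the longer Sp7 list only.

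Of the 1550 gained regions, 643 (41.5%) were Dlx5 regions without Sp1 and 368 (23.7%) were Sp1 regions without Dlx5. A further 101 (6.52%) were both and 438 (28.3%) were neither. Among kept Sp7mut regions these shares were 57.3%, 8.70%, 29.2% and 4.79%. Of all 8203 Sp7mut regions, 3846, 1526, 1760 and 1071 were in these classes. Among Sp7mut regions with Sp1 alone, 305 of 1526 were kept, 55.9% met an Sp7 peak only and 24.1% were gained. Among those with Dlx5 alone, 52.3% (2010 of 3846) were kept and 16.7% were gained. These shares were not matched for row position, and 18.9% of all Sp7mut regions were gained. By row position, the order of the gained shares changed. It was reversed in part 2 (8.52% with Sp1 alone, 12.5% with Dlx5 alone) and part 3 (13.2% and 16.8%). Sp1 alone was higher in part 1 (5.83% and 2.88%), part 4 (29.2% and 23.5%) and part 5 (43.9% and 35.1%). Regions with both partners were gained least often, at 5.74% (101 of 1760).

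Primary osteoblast Sp7 regions were rare among lost regions. They made up 16.6% of Sp7 regions, 21.7% of kept and 3.07% of lost regions (19 of 619), and at matched position 11.6% and 3.07%. Kept regions were higher in 5 of 5 parts and in all 4 pairs of single lists (by 3.78 to 10.2 points). Among Sp7mut regions primary Sp7 regions made up 12.5%, with 21.6% of kept and 9.16% of gained regions (142 of 1550). At matched position these shares were 7.73% and 9.16%, and kept regions were higher in 2 of 5 parts. The pairs of lists disagreed in direction here, with kept minus gained at -3.25 and -1.70 points against Sp7 replicate 1 and 13.2 and 13.3 against replicate 2. Of the 142 gained regions with primary Sp7, 125 (88.0%) were Dlx5 regions, against 44.0% of the other gained regions. This contrast was not matched for row position. From the first to the last part, the Dlx5 share of gained regions went from 76.9% to 38.7%. Their primary Sp7 share went from 35.9% to 4.17%. Of the 759 kept Sp7 regions with primary Sp7, 98.2% met Dlx5 and 10.9% met Sp1. Of the 19 lost regions with primary Sp7, 18 met Dlx5 and 0 met Sp1, and of kept regions without primary Sp7 83.6% met Dlx5. These shares were not matched for row position either.

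The same partners were followed along single lists, which does not depend on how regions were classed. Over rows 1 to 1000, 94.5% and 96.9% of Sp7 peaks and 93.9% and 94.3% of Sp7mut peaks lay on Dlx5 regions. Over rows 2501 to 5976, the shares were 72.0% and 72.9% for Sp7 and 63.2% and 66.9% for Sp7mut, so that both Sp7mut lists lay below both Sp7 lists. Sp1 ran the other way: over the same rows it met 27.9% and 26.0% of Sp7 peaks and 42.0% and 36.8% of Sp7mut peaks. At the start the Sp1 shares of the replicates of Sp7 were too far apart for such a statement, at 36.3% and 21.0% over rows 1 to 1000, with Sp7mut at 37.6% and 34.9%. Primary Sp7 regions held 71% and 75% of the first 100 Sp7 rows and 84% and 83% of the first 100 Sp7mut rows. Over rows 1 to 1000 the ranges overlapped, at 39.1% and 49.1% for Sp7 and 44.1% and 44.0% for Sp7mut.

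**Figure D4:**
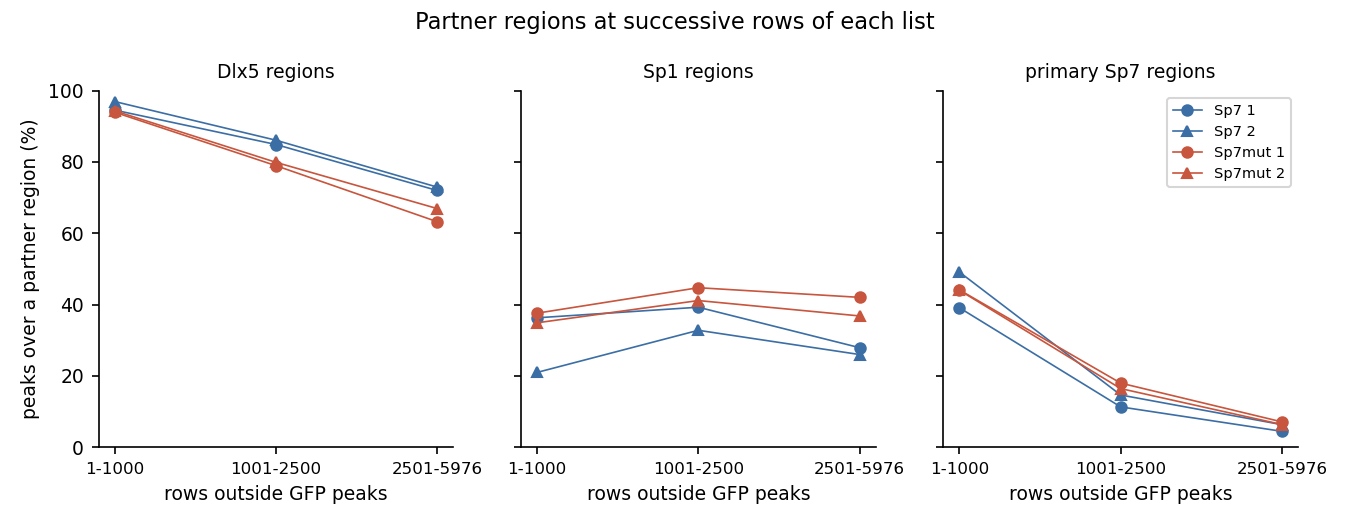
Percentage of peaks over a Dlx5, Sp1 or primary osteoblast Sp7 region (y axis) at successive rows outside GFP peaks (x axis) of each Sp7 (blue) and Sp7mut list (red), with circles for replicate 1 and triangles for replicate 2. Over rows 2501 to 5976 both Sp7mut lists lie below both Sp7 lists for Dlx5 (63.2% and 66.9% against 72.0% and 72.9%) and above them for Sp1.

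Within the kept regions, the order of rows differed between the proteins more than between replicates. Across the 3492 kept regions, which are not independent, row positions in the Sp7 replicates had a Spearman correlation of 0.710 and those in the Sp7mut replicates of 0.824. The 4 pairs across the proteins gave 0.590 to 0.625. For the next values each region was placed by its row among the kept regions alone, as a percentile. The 293 kept regions with Sp1 and without Dlx5 had a median place of 62.3 and 75.9 in the Sp7 lists and 57.8 and 61.6 in the Sp7mut lists. The 2012 with Dlx5 and without Sp1 had a median place of 50.7 and 41.6 in the Sp7 lists and 50.9 and 48.8 in the Sp7mut lists. The median place of the Sp1 sites was thus earlier in both Sp7mut lists than in either Sp7 list. The median change per region was -10.9 and -8.91 points against Sp7 replicate 2, but -3.26 and -0.573 points against replicate 1. For the Dlx5 sites the change was 3.85 and 2.43 points against Sp7 replicate 2, and 0.544 and -0.473 points against replicate 1, so the direction was not shared by all pairs. The size of either shift thus rested on Sp7 replicate 2.

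**Figure D5:**
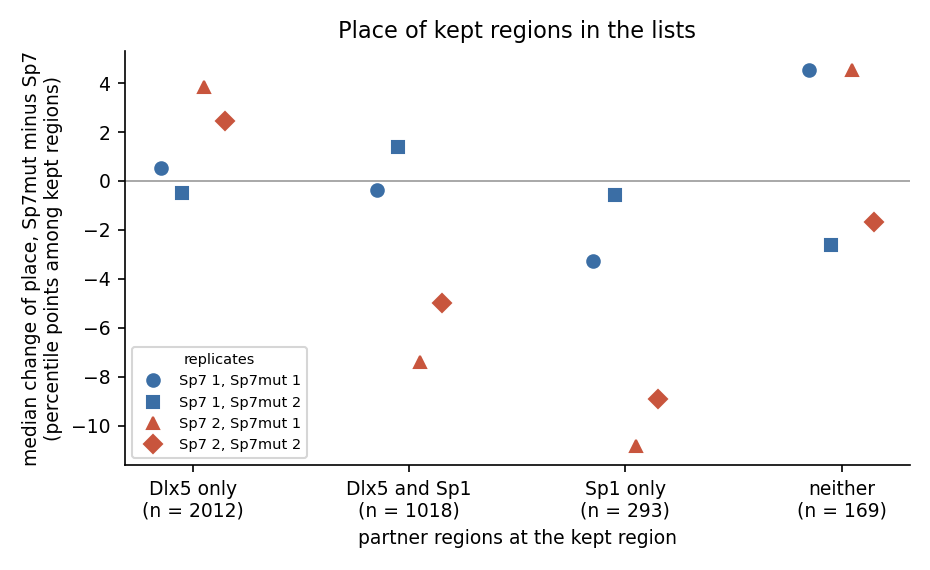
Median change of place of kept regions among the 3492 kept regions (y axis, Sp7mut minus Sp7 in percentile points, negative = earlier with Sp7mut) by partner regions (x axis), for the 4 pairs of lists. Against Sp7 replicate 2 (red) regions with Sp1 and without Dlx5 change by -10.9 and -8.91 points, and against replicate 1 (blue) by -3.26 and -0.573 points.

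The kept regions with the most different places are named as the extremes of that difference, and nothing is read from its size. Their places are percentiles among the regions of each protein, since the lists differ in length. The furthest earlier with Sp7mut was chr4:88640565-88640872, at percentile 98.6 of the Sp7 and 11.3 of the Sp7mut regions, followed by chr2:166060504-166060693 (96.1 and 11.5) and chr6:90722295-90722462 (99.2 and 15.5). All 3 were Dlx5 regions and none was an Sp1 region, although each held a peak in 1 of the 2 Sp1 lists. The furthest later was chr16:35256305-35256479, at percentile 16.4 of the Sp7 and 98.5 of the Sp7mut regions, with no Dlx5 or Sp1 peak. It was followed by chr10:125704847-125705015 (13.1 and 93.4) and chr13:83341412-83341728 (17.0 and 93.9), both Dlx5 regions without an Sp1 peak.

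Kept regions were chosen by overlap of peaks, which bounds the distance between peak midpoints there, so these distances are a description only. The median distance between midpoints was 21.5 to 24 bp for the 4 pairs across the proteins, 24 bp between the Sp7 and 19 bp between the Sp7mut replicates. At kept regions with Sp1 and without Dlx5 the distances were wider for all pairs, 32 to 36.5 bp across the proteins and 37 and 22.5 bp between replicates. Median peak widths of lost regions were 165 and 167 bp in the Sp7 lists, against 160 and 161 bp in kept regions, and those of gained regions 154.5 and 169 bp in the Sp7mut lists against 144 and 161 bp. Few lost or gained regions lay beside a displaced peak: 54 of the 619 lost regions (8.72%) and 193 of the 1550 gained regions (12.5%) had the midpoint of a peak of the other protein within 500 bp.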

How the data were processed

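The deposited files hold peak positions, 1 list per library, called by the authors in mm9, per the submitters' processing notes. The other values here are counts and percentages computed from these deposited positions. The sources used here do not name the aligner, the caller or its threshold. Inputs are as the labels state them, which give none for GFP. Of the 15 samples, 3 are inputs without a list here. Starts were read as 0-based. An overlap meant 1 bp or more in common. Primary Sp7 regions left out wild-type control peaks.

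Members, region lists and settings were chosen with earlier results of these data known. Regions named were the 10 leading kept, 5 leading lost and gained, 3 leading gained with Sp1 or Dlx5 alone, and 3 moving furthest each way. Alternatives are given at the end. Sequence and gene context needs mm9 and was not run. The code was tested on simulated lists. Scripts used scipy 1.17.1, pandas 2.3.3 and numpy 2.4.6 in Python 3.11.15, with plots from matplotlib 3.10.9.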

Additional observations from a re-analysis of the deposited data

How the results depend on the processing

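For 10 summary values, 83 of 125 recomputed values stayed close to the value given above. Close meant less than 1 SD over the 4 pairs of single lists away or, for numbers of regions, within 1.5 times. Regions of a single list needed no second replicate, so the range of these pairs need not hold the values given above. Some of those values lay outside it. Lost regions numbered 619, against 1332 to 11021 in the pairs, and gained regions 1550, against 3057 to 9872. The share among the first 1000 regions was 65.2%, against 62.2% to 63.7%. Kept minus lost for Dlx5 was 3.26 points, against 4.31 to 11.0. Kept minus lost for Sp1 was 31.9 points, against 19.9 to 28.0 in the pairs. Gained minus kept for Dlx5 was -31.2 points, against -26.9 to -16.3. The wider 50% of peaks gave 22.6% of Sp7 and 14.0% of Sp7mut regions kept, 978 gained regions, 19.6% shared among the first 1000 regions (65.2% otherwise), kept minus lost of -1.10 (Dlx5) and 13.7 points (Sp1), gained minus kept of -12.1 (Dlx5) and -12.2 points (Sp1), and a shift of Sp1 against Dlx5 sites of -0.394 points (-7.49 otherwise). The first 50% of rows gave 332 lost and 818 gained regions and -19.2 points for Dlx5 in gained minus kept. Equal list lengths gave 877 gained regions, -21.6 points there and -1.39 points for Dlx5 in kept minus lost. An overlap of at least 50% of both gave 61.7% of leading regions shared and kept minus lost of 15.8 (Dlx5) and 13.9 points (Sp1). A partner peak in either list gave 0.402 and 42.3 points. Counting only regions of the other protein, chosen after seeing the data, gave 25.3 points for Sp1 in kept minus lost and -19.9 points for Dlx5 in gained minus kept. The cause of these changes was not tested.

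Leaving out 1 list at a time gave ranges of 35.8% to 83.6% and 29.4% to 78.0% kept, 822 to 7935 lost and 1802 to 4722 gained regions, and 63.7% to 64.3% of leading regions shared. Kept minus lost ranged from 0.112 to 11.2 (Dlx5) and 21.4 to 40.9 points (Sp1), and gained minus kept from -35.0 to -11.6 (Dlx5) and -13.3 to 9.66 points (Sp1). The extremes of 35.8%, 78.0%, 7935, -11.6 and -13.3 came without Sp7 replicate 2. Leaving out a Dlx5 or Sp1 list was chosen after seeing the data. The Sp1 difference of kept over lost and the Dlx5 difference of kept over gained kept their sign in all settings run. The labels number the replicates but do not link a list of Sp7 to a list of Sp7mut, so no paired analysis was made. The values for all 4 pairings of the lists are given instead. Depth is unknown.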

Other observations

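Lost and gained regions were found on each of the 19 autosomes and on X. Another region of the same protein lay within 10 kb of 18.7% of kept and 23.1% of lost Sp7 regions, and of 27.5% of kept and 31.7% of gained Sp7mut regions. Over these chromosomes, the kept share of Sp7 regions ran from 63.7% on chromosome 3 to 81.0% on X, which held only 21 Sp7 regions, with a median of 69.2%. The share lost ran from 8.95% on chromosome 7 to 15.6% on chromosome 3. The share of Sp7mut regions gained ran from 7.14% on X (2 of 28) to 23.8% on chromosome 14. Chromosome 11 had 135 gained regions, the highest number, at 17.7% of its 761 Sp7mut regions.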
